A study of Homo sapiens with 2 samples.

Results

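The 40 genes described here encode the enzymes of glycolysis, the transporters and regulators at its entry and exit points, the sensors of cellular oxygen, and other genes known to be induced by low oxygen. They were taken by a list of symbols from the 60671 genes of the deposited gene table, and a symbol with several identifiers kept the one with the most counts. All values are from C4-2B cells. C4-2B is a human castration-resistant prostate cancer (CRPC) line derived from LNCaP cells, although the sample labels call its cell type breast cancer. The vehicle library came from cells given vehicle, and the (R)-9b library from cells given 1 µM (R)-9b overnight, (R)-9b being a small-molecule inhibitor of the tyrosine kinase ACK1. Both came from the same line grown in medium with fetal bovine serum, no genetic change is labelled in either, and the sources used here give no oxygen level for the cultures. There was 1 library per condition, so no value below has a replicate, no test of the conditions was possible, and no p-value is given.

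Glycolysis splits glucose into pyruvate, and lactate dehydrogenase turns pyruvate into lactate, which monocarboxylate transporters carry out of the cell. When oxygen is scarce, the prolyl hydroxylases encoded by EGLN genes no longer mark the hypoxia-inducible factors (HIFs) for destruction through VHL, and HIFs bind short DNA motifs near glucose transporter, glycolytic and other genes and raise their transcription. Many tumour lines run this programme in part at normal oxygen, and the EGLN3, BNIP3, VEGFA and CA9 genes are widely used as readouts of it.

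The gene counts, reads assigned to each gene, totalled 65207444 for vehicle and 57653965 for (R)-9b. A minimum of 10 counts, the 2 libraries added, left 23446 genes for comparison. Ratios are (R)-9b over vehicle on the log2 scale after scaling with the TMM method, each with an exact 95% interval that covers counting error only. A gene is called higher or lower where its whole interval lies beyond 1.5-fold. Mitochondrially encoded genes took 1.49% of the counts in vehicle and 9.54% in (R)-9b. Scaling without them left 4 members called higher and 16 called lower, and any other part of theirs in the members' ratios was not tested. Of 10 prostate markers, KLK3 had the most counts, 146597 in vehicle and 297728 in (R)-9b, and ACP3 the fewest, 1340 and 843. The immune marker PTPRC had 0 in both, and the breast markers ESR1 and SCGB2A2 had 2 and 0 in each. PIP, the highest of 8 breast markers, had 124 counts in vehicle and 595 in (R)-9b. LYZ, the highest of 8 immune markers, had 17 and 31. Of 8 stromal and endothelial markers, COL1A1 had the most counts, 1114 in vehicle and 2004 in (R)-9b, and VWF had 769 and 411. In bulk RNA, fewer cells of a kind and less RNA per cell cannot be told apart.

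In the (R)-9b library most of the 40 genes were lower, by little for the glycolytic enzymes and by more than 2-fold for most of the other hypoxia-inducible genes. All 40 passed the minimum count. Of these, 16 were called lower and 4 higher beyond 1.5-fold, and 20 were called neither way. Among all 23446 genes, 7.74% were called lower and 8.71% higher by the same rule. Beyond 2-fold, 10 members were lower and 2 higher, against 3.44% and 4.20% of all genes. EPO passed the minimum through the (R)-9b library alone, so its call as higher at both folds was fixed by passing. A minimum of 50 counts, which left EPO out, gave 3 members higher beyond 1.5-fold and 1 beyond 2-fold. The median log2 ratio of the 40 members was -0.53, against -0.005 over all genes. Since most members are abundant, the 35 members with at least 1000 counts were also set against the 10240 genes at that depth, of which 7.54% were called lower and 6.46% higher. Of the 35 members, 15 were lower and 2 higher, and their median was -0.56 against -0.03 for those genes. Beyond 2-fold, 9 of the 35 were lower and 1 was higher, against 2.45% and 2.09% of the genes at that depth. These shares describe the 2 libraries, and nothing in them says how far 2 vehicle libraries would differ from each other.

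**Figure D1:**
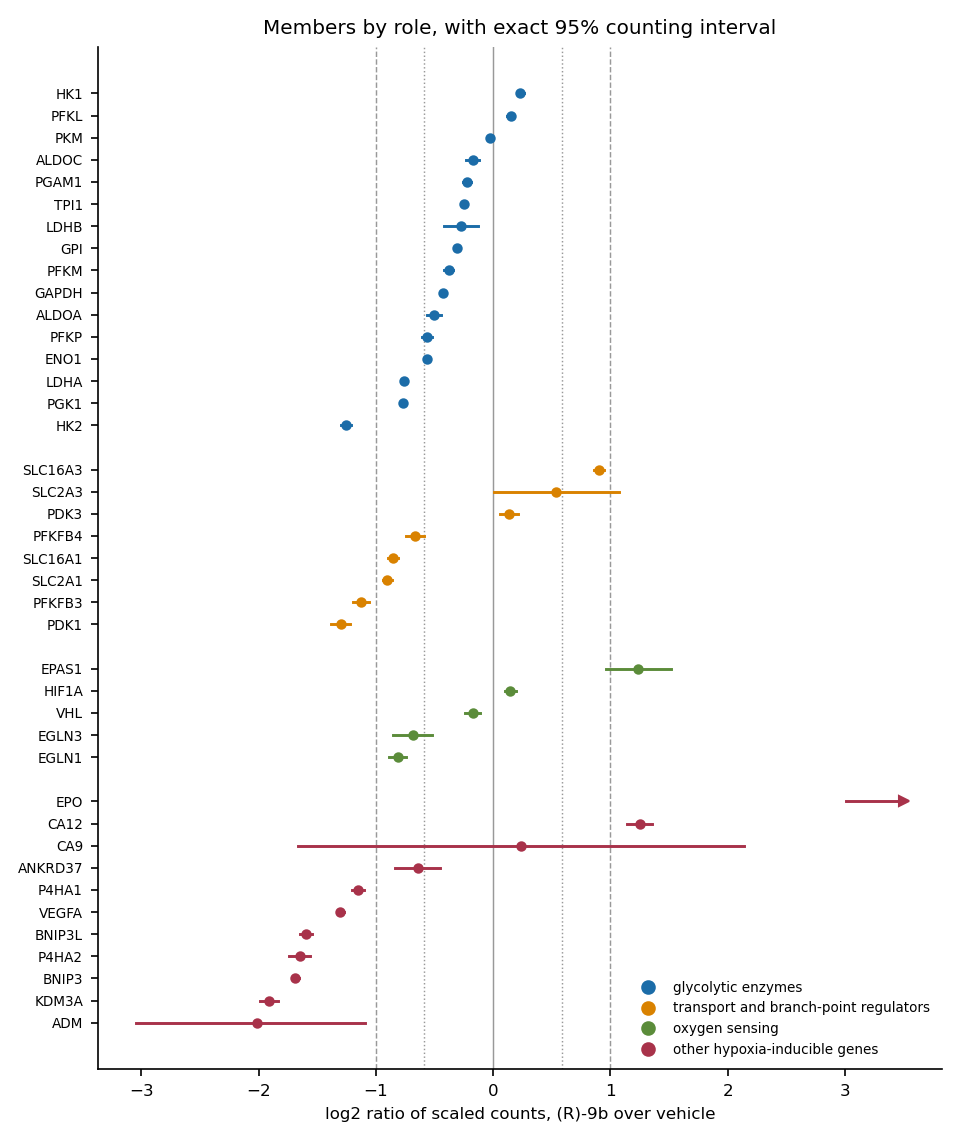
The log2 ratio of scaled counts, (R)-9b over vehicle (x axis), is plotted for each of the 40 genes by role, with 1 library per condition. Points are ratios, bars are exact 95% counting intervals, the arrow marks EPO, which had 0 counts in vehicle and an interval from 3.01 upwards, and the dotted and dashed lines lie at 1.5-fold and 2-fold. The glycolytic enzymes sit between -1.25 and 0.23, whereas 7 of the 11 other hypoxia-inducible genes lie wholly beyond 2-fold lower.

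The members' ratios differed by role. The 16 glycolytic enzymes had a median log2 ratio of -0.34, the 8 transport and branch-point genes -0.76, the 5 oxygen-sensing genes -0.17 and the 11 other hypoxia-inducible genes -1.30, with EPO, which has no ratio, placed highest. The median of the last group was thus 0.96 log2 units below that of the glycolytic enzymes (difference -0.96). The ranges overlapped, because HK2 at -1.25 was lower than P4HA1, and CA12 and EPO were the highest of all members. The difference depended on where the line between the groups was drawn. When 8 members with hypoxia-inducible expression but a role in glucose transport, pyruvate use or oxygen sensing (EGLN1, EGLN3, SLC2A1, SLC2A3, PFKFB3, PFKFB4, PDK1 and SLC16A3) were counted with the other hypoxia-inducible genes, it shrank to -0.56. When the 2 members with few counts, CA9 and EPO, were left out by a minimum count of 50, it grew to -1.25.

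**Figure D2:**
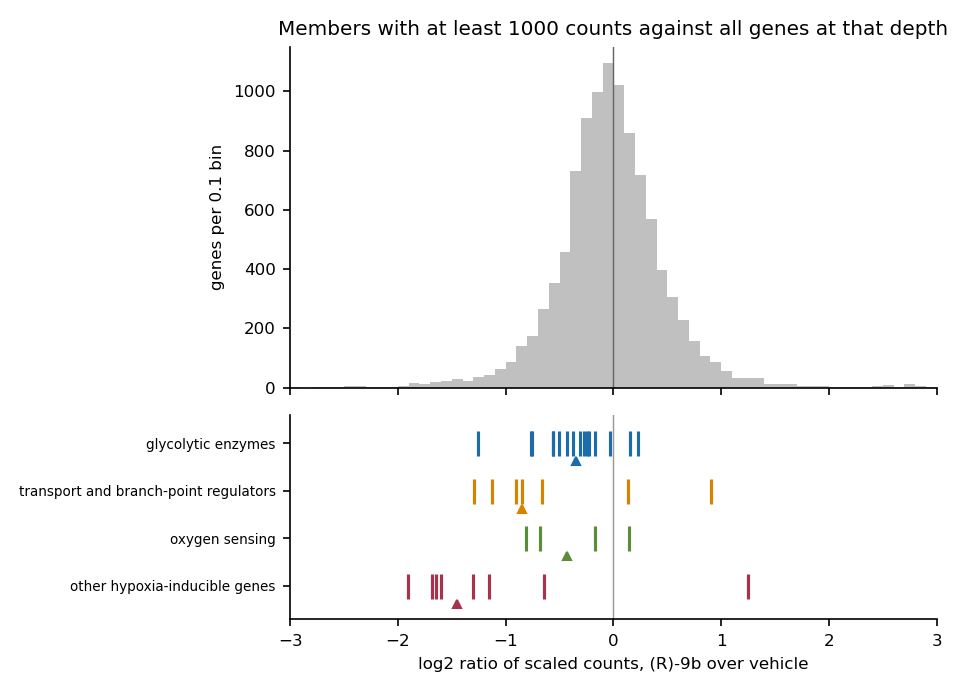
The upper panel shows how many of the 10240 genes with at least 1000 counts fall in each 0.1-wide bin of the log2 ratio, (R)-9b over vehicle, and the lower panel marks the 35 members at that depth by role, with a triangle at each group's median. A few genes lie outside the plotted range of -3 to 3. The bulk of genes is centred near 0 (median -0.03), and most marks of the other hypoxia-inducible genes lie in its lower tail.

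Glycolytic enzymes together took 1.39% of all counts in vehicle and 1.02% in (R)-9b. With mitochondrially encoded genes left out of the totals, these shares were 1.41% and 1.13%. Gene counts per kilobase of exon miss most reads of ALDOA and LDHB, judged by transcript estimates. By this measure, GAPDH stood at 983 CPM per kilobase in vehicle and 729 in (R)-9b, ENO1 at 505 and 342, and TPI1 at 430 and 363. The hexokinase genes each stood lower than these, with HK1 at 42.7 and 50.1 and HK2 at 38.2 and 16.0 CPM per kilobase. So did the phosphofructokinase genes, with PFKL at 30.6 and 34.0, PFKM at 30.4 and 23.4 and PFKP at 37.3 and 25.3. Values are per gene, and paralogues at a step were not summed. PGAM1 stood at 96.7 and 82.8, and GPI at 95.8 and 77.3. Exon bases of all annotated transcripts were used, 8926 for PFKL, whose main transcript has 2912.

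**Figure D3:**
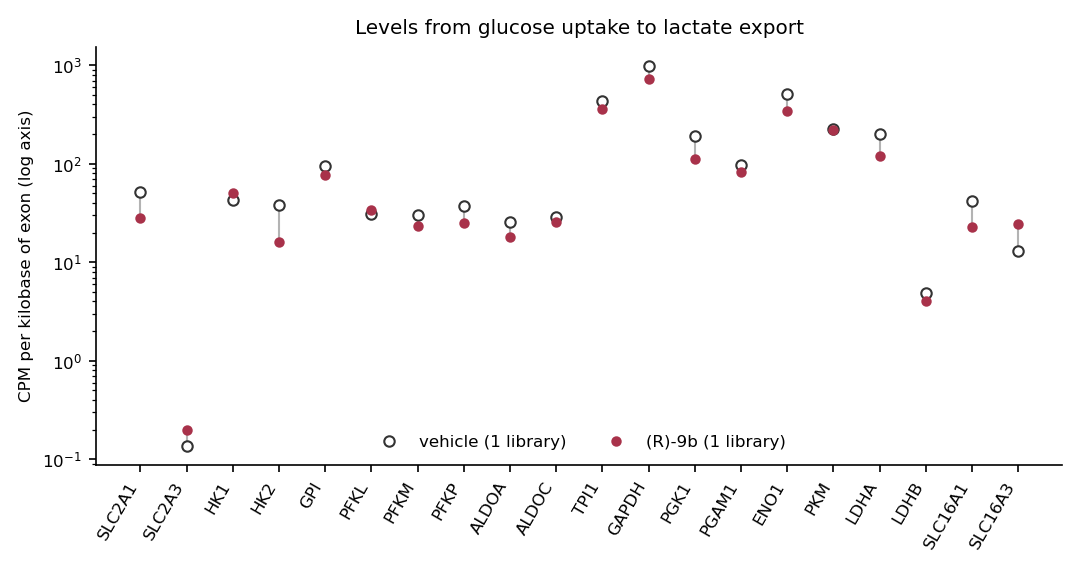
Levels in CPM per kilobase of exon (log axis) are plotted for the glucose transporters, glycolytic enzymes, lactate dehydrogenases and lactate transporters in the order of the pathway, with open points for vehicle and filled points for (R)-9b, 1 library each. HK1, PFKL, SLC2A3 and SLC16A3 are higher in (R)-9b and the other 16 genes are lower. Judged by their transcript estimates, the points of ALDOA and LDHB are too low in both libraries, and both genes overlap another gene of the same strand.

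Of the 16 enzymes, 3 were called lower (HK2, PGK1 and LDHA), none was called higher and 13 were called neither way. The interval lay below 0 for 14 of the 16 and above 0 for 2. Among the 10240 genes with at least 1000 counts it lay below 0 for 4587 and above 0 for 3845, so an interval that leaves out 0 was common at this depth. Hexokinase 2, which traps glucose in the cell by phosphorylation and is the inducible hexokinase of many tumours, had 15422 counts in vehicle and 5481 in (R)-9b. Its log2 ratio was -1.25 (95% interval -1.30 to -1.21), and it was the only enzyme called beyond 2-fold. Hexokinase 1, the constitutive form, had 17884 and 17796 counts and a log2 ratio of 0.23 (0.20 to 0.26). The ratio of the paralogues does not depend on the scaling, and HK1 moved 1.49 log2 units (1.43 to 1.54) relative to HK2. HK1 made up 53.7% of the counts of both genes in vehicle and 76.5% in (R)-9b.

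Phosphoglycerate kinase 1, which makes the first ATP of the pathway, had 69512 counts in vehicle and 34629 in (R)-9b, a log2 ratio of -0.77 (-0.79 to -0.75). Lactate dehydrogenase A, which favours the step from pyruvate to lactate, had 83843 and 42011 counts and a log2 ratio of -0.76 (-0.78 to -0.74). These were the 2 enzymes next to HK2 in the size of the difference. Enolase 1, with 177583 and 101969 counts, came just inside the threshold at -0.56 (-0.57 to -0.55), and the platelet phosphofructokinase PFKP, with 12016 and 6913 counts, had the same ratio of -0.56 (-0.60 to -0.52). Scaling by total counts, which set no gene aside, moved ENO1 to -0.62 and past 1.5-fold.

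The remaining enzymes lay closer to 0. GAPDH had 195038 counts in vehicle and 122766 in (R)-9b (-0.43), muscle phosphofructokinase PFKM 14823 and 9675 (-0.38), and glucose-6-phosphate isomerase GPI 68118 and 46632 (-0.31). Triosephosphate isomerase TPI1 had 77286 and 55288 counts (-0.25), and phosphoglycerate mutase PGAM1 16542 and 12000 (-0.23). Pyruvate kinase PKM, which makes the last ATP of the pathway, had 127476 and 105956 counts and a log2 ratio of -0.03 (-0.04 to -0.02), the value nearest to 0 of the 16. Its sign turned under scaling by the upper quartile, where it was 0.01 and its interval held 0 (-0.004 to 0.019). Liver phosphofructokinase PFKL, with 18214 and 17141 counts, was the only enzyme besides HK1 above 0, at 0.15 (0.12 to 0.18). Relative to PFKL, PFKM was 0.53 log2 units lower (0.48 to 0.58) and PFKP 0.71 lower (0.66 to 0.76), both free of the scaling.

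For 2 enzymes the counts cover only part of the gene's reads. ALDOA (aldolase A) had 6706 counts in vehicle and 4009 in (R)-9b (-0.50), but 42.3% of its exonic bases lie under another gene of the same strand, AC093512.2. LDHB, which favours the step from lactate to pyruvate, had 971 and 682 counts (-0.27), with 33.4% of its bases under AC010197.2. Reads that fit more than 1 gene were not counted. The vehicle library held 0.096 gene reads per estimated transcript count for ALDOA and 0.0743 for LDHB, against a median of 2.75 over 9460 genes. Summed transcript estimates in vehicle were 69837 for ALDOA and 13077 for LDHB, and gave log2 ratios of -0.37 for ALDOA and -0.10 for LDHB, the same direction as the gene counts. The gene counts thus understate the levels of both enzymes in either library. Whether the overlap accounts for the missing reads was not tested. Aldolase C, a brain-type aldolase, had 5640 and 4239 counts (-0.17, -0.23 to -0.12). GAPDH shares 14.2% of its exonic bases with a gene on the other strand, and the strand setting of the counting is not given in the sources used here. Adding the counts of 62 annotated GAPDH pseudogenes, which held 8.41% as many counts as GAPDH in vehicle, left its ratio at -0.43.

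The promoter sequences of PGK1, LDHA and HK2 are shown because these are the 3 enzymes called lower and because their RefSeq promoter windows hold the core motif of HIF binding sites. Each window runs from 250 bases before to 50 bases after an annotated start, 5′ to 3′ on the gene's strand, on GRCh38.p14. Capitals mark the 2 motifs searched, ACGTG and the variant GCGTG, on either strand. Where CACGTG stands, it holds the first motif on both strands and counts as 2 matches. The PGK1 window lies at chrX:78103998-78104297 on the plus strand, the upstream LDHA window at chr11:18394313-18394612 on the plus strand, and the HK2 windows at chr2:74833877-74834176 and chr2:74834920-74835219, both on the plus strand.
PGK1: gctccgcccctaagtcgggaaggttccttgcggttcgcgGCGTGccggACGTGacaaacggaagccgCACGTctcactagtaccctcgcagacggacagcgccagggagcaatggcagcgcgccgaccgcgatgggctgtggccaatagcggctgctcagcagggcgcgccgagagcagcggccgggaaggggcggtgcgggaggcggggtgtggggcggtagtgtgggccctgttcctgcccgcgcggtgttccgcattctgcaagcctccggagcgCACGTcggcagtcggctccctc
LDHA upstream start: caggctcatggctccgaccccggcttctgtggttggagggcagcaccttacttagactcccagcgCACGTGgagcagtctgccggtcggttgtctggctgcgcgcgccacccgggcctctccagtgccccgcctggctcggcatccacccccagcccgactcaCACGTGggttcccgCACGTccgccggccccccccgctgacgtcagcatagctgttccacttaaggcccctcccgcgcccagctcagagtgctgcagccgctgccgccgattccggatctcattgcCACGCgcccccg
HK2 upstream start: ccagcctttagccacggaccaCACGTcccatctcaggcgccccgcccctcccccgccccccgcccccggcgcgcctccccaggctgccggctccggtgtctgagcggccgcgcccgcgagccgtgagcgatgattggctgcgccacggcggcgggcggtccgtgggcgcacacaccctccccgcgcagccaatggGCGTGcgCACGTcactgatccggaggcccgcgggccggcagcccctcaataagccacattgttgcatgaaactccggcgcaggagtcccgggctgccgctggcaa
HK2 downstream start: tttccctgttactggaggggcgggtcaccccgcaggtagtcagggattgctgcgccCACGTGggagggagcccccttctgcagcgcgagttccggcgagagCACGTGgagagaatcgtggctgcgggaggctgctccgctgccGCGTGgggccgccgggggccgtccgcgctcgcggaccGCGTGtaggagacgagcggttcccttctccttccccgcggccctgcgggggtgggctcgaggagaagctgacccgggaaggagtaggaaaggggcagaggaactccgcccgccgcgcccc
The PGK1 window held 3 matches of ACGTG, at -200, -181 and 30 bases from the start. The upstream LDHA window held 5, 4 of them from CACGTG at -183 and -85. A downstream LDHA window, at chr11:18396101-18396400, held 0 matches of ACGTG and 1 of GCGTG and is not printed. The upstream HK2 window held 2, and the downstream one 4 from 2 copies of CACGTG.

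Both motifs are short and common. Of all 35116 RefSeq promoter windows of this length, 21.4% held ACGTG and 36.5% held GCGTG on either strand. The table matched 35 of the 40 members with 63 windows, and SLC2A3, SLC16A1, VHL, VEGFA and BNIP3L had none in it. ACGTG was found in 36.5% of the members' windows and GCGTG in 44.4%. By gene, 54.3% of the 35 matched members had ACGTG in at least 1 window, against 24.9% of all 27305 genes, and genes with more annotated starts have more chances to hold it. Among the 16 glycolytic enzymes 62.5% had it, including GAPDH and GPI, which were not called. The share was 66.7% of 6 matched transport and branch-point genes, 25.0% of 4 oxygen-sensing genes and 44.4% of 9 other hypoxia-inducible genes. Whether a motif goes with a member's ratio was not tested. The palindrome CACGTG was found in 12.7% of the members' windows and 7.26% of all windows. A match is a string of letters and not a measured binding site.

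**Figure D4:**
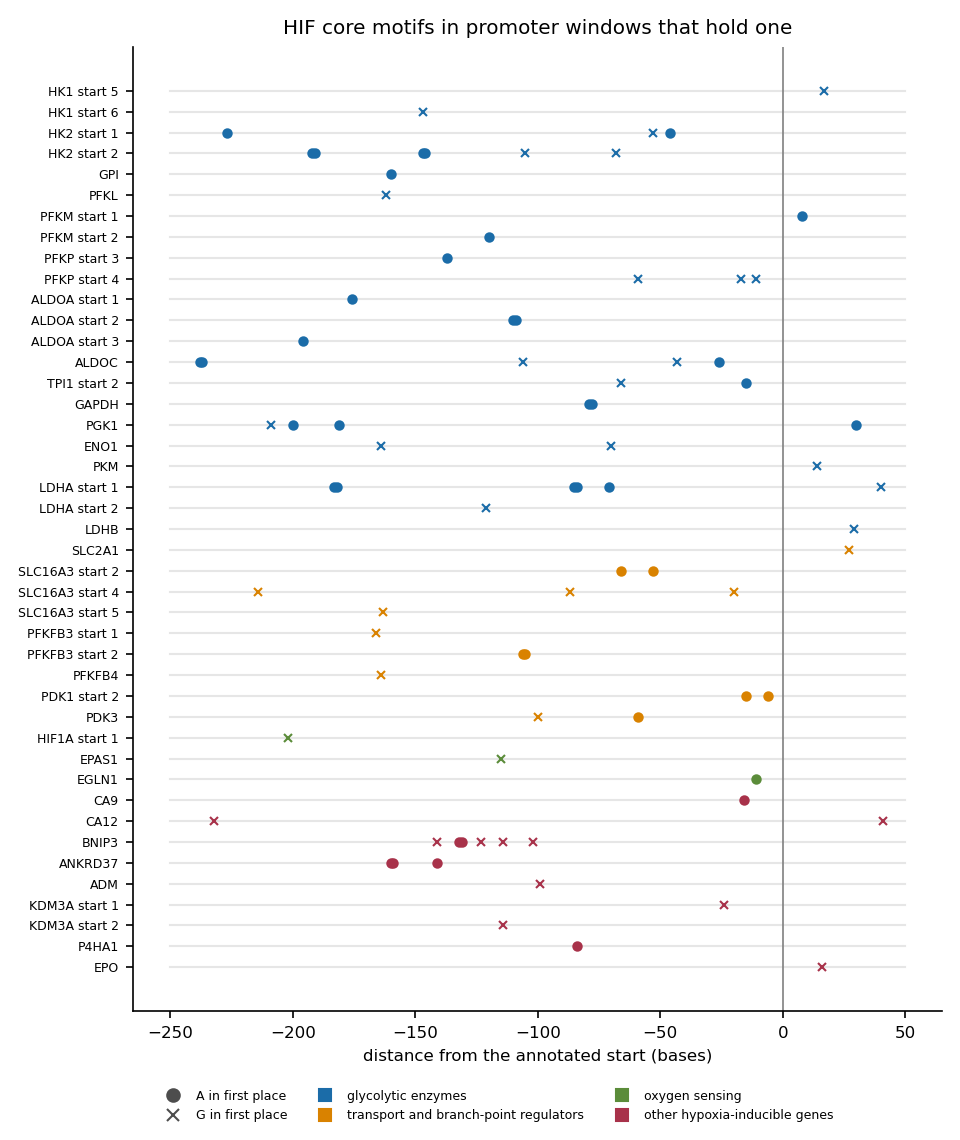
Each line is a promoter window of a member that holds at least 1 match (43 of 63 windows), from 250 bases before to 50 after the annotated start (x axis, bases), coloured by role. Circles are matches of ACGTG and crosses matches of GCGTG, on either strand. Genes with crosses only were found among those higher in (R)-9b (CA12, EPAS1 and EPO) and among those lower (KDM3A, ADM, SLC2A1 and PFKFB4). SLC16A3, which was higher, has circles at 1 of its starts, and the only window of P4HA2, which was lower, holds neither motif.

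HK2 has estimated counts for 2 protein-coding transcripts in the deposited transcript table, and they differed from each other. HK2-201, whose start at 74833981 lies in the upstream window printed above, had an estimate of 5466 in vehicle and 1671 in (R)-9b, a log2 ratio of -1.46 (-1.54 to -1.38). HK2-202, which starts at 74835170 in the downstream window, had 355 and 329, a log2 ratio of 0.14 (-0.08 to 0.36). HK2-201 starts ahead of the RefSeq start on which its window is set, so the distances given for the matches do not count from its own start. PGK1-206, which held 68.0% of the PGK1 estimate in vehicle, starts at 77910739, outside the PGK1 window printed above. LDHA transcripts also differed, with LDHA-205 at -0.41 (12307 and 7812 estimated counts) and LDHA-201 at -1.26 (4973 and 1745). Transcript estimates divide shared reads by a model, so their intervals leave out the error of that division.

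The genes that bring glucose in, send lactate out or set the flow at branch points differed by more than the enzymes in their median. Of these 8 genes, 5 were called lower (SLC2A1, SLC16A1, PFKFB3, PFKFB4 and PDK1) and SLC16A3 was called higher. SLC2A1, which encodes the glucose transporter GLUT1, had 16368 counts in vehicle and 7435 in (R)-9b, a log2 ratio of -0.90 (-0.94 to -0.86). SLC2A3, which encodes GLUT3, had only 56 and 69 counts (0.54, 0.01 to 1.07). With halved counts the SLC2A3 interval ran from -0.24 to 1.30. GLUT1 transcripts made up 99.7% of the counts of both in vehicle and 99.1% in (R)-9b.

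The monocarboxylate transporters moved in opposite directions. SLC16A1, encoding MCT1, which carries lactate in or out, had 14670 counts in vehicle and 6893 in (R)-9b, a log2 ratio of -0.85 (-0.89 to -0.81). SLC16A3, encoding MCT4, which exports lactate from highly glycolytic cells, had 7807 and 12380 counts, a log2 ratio of 0.90 (0.86 to 0.94). Their difference was -1.75 (-1.81 to -1.70), and the order of their levels turned. SLC16A1 stood at 41.5 CPM per kilobase in vehicle against 13.0 for SLC16A3, and at 23.0 against 24.4 in (R)-9b. The main SLC16A3 transcript in the transcript table, SLC16A3-201, had estimates of 2765 and 4339, with the same log2 ratio of 0.90. The counts of SLC16A3 overlap a gene of the other strand over 5.36% of its exonic bases.

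PFKFB3 and PFKFB4 encode bifunctional enzymes that set the level of fructose-2,6-bisphosphate, the strongest activator of phosphofructokinase. PFKFB3 had 6523 counts in vehicle and 2532 in (R)-9b, a log2 ratio of -1.13 (-1.19 to -1.06). PFKFB4 had 3804 and 2033 counts and a log2 ratio of -0.67 (-0.74 to -0.59), close to the 1.5-fold line, and its call was lost under upper-quartile scaling, with halved counts and with transcript estimates. PDK1, a kinase that shuts pyruvate dehydrogenase and so keeps pyruvate from the mitochondria, had 4671 and 1611 counts, a log2 ratio of -1.30 (-1.38 to -1.22). Its paralogue PDK3 had 2900 and 2701 counts and lay near 0 (0.14, 0.06 to 0.21). PDK1 made up 61.7% of the counts of both kinases in vehicle and 37.4% in (R)-9b, a difference of -1.43 log2 units (-1.54 to -1.32).

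The PFKFB3 transcripts differed in their estimates. PFKFB3-203, which starts at 6202931 on chromosome 10 and has 1560 coding bases, had an estimated count of 1477 in vehicle and was listed at 0 in (R)-9b. PFKFB3-205, which starts at 6144934 and has 1500 coding bases, had 665 and 742, a log2 ratio of 0.41 (0.25 to 0.56). A listed 0 can be a failed estimate, so no fold is given. Another coding transcript of PFKFB3, which starts at 6202877 close to PFKFB3-203, had 127 and 92.9 (-0.20, -0.60 to 0.20), so the estimates did not divide by start. The promoter windows of both starts are shown next, with that of SLC16A3-201, the main transcript of the member called higher. They lie at chr10:6144671-6144970, chr10:6202682-6202981 and chr17:82231982-82232281, all on the plus strand of GRCh38.p14, with capitals as above.
PFKFB3 upstream start: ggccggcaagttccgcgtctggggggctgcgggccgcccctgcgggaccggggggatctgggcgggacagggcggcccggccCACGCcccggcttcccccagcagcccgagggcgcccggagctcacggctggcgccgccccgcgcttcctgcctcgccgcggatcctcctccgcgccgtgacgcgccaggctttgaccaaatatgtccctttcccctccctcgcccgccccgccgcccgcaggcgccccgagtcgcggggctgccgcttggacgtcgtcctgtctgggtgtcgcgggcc
PFKFB3 downstream start: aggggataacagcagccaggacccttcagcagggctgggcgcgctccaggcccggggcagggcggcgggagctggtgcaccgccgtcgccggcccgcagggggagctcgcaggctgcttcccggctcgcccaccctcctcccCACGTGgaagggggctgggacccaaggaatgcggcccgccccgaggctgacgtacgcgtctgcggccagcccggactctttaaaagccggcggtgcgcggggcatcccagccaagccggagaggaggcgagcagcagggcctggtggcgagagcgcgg
SLC16A3: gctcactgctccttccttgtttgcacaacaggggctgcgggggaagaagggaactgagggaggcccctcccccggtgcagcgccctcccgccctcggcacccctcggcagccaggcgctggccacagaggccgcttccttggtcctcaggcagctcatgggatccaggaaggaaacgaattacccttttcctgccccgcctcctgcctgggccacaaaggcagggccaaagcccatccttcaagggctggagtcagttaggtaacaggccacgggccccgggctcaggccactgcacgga
The window of the upstream PFKFB3 start held no ACGTG and 1 GCGTG. The window of the downstream start, which also holds the start of the transcript that was not listed at 0, had CACGTG at -106, and the SLC16A3-201 window held neither motif. Another SLC16A3 window, at a start further upstream, held 2 matches of ACGTG.

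**Figure D5:**
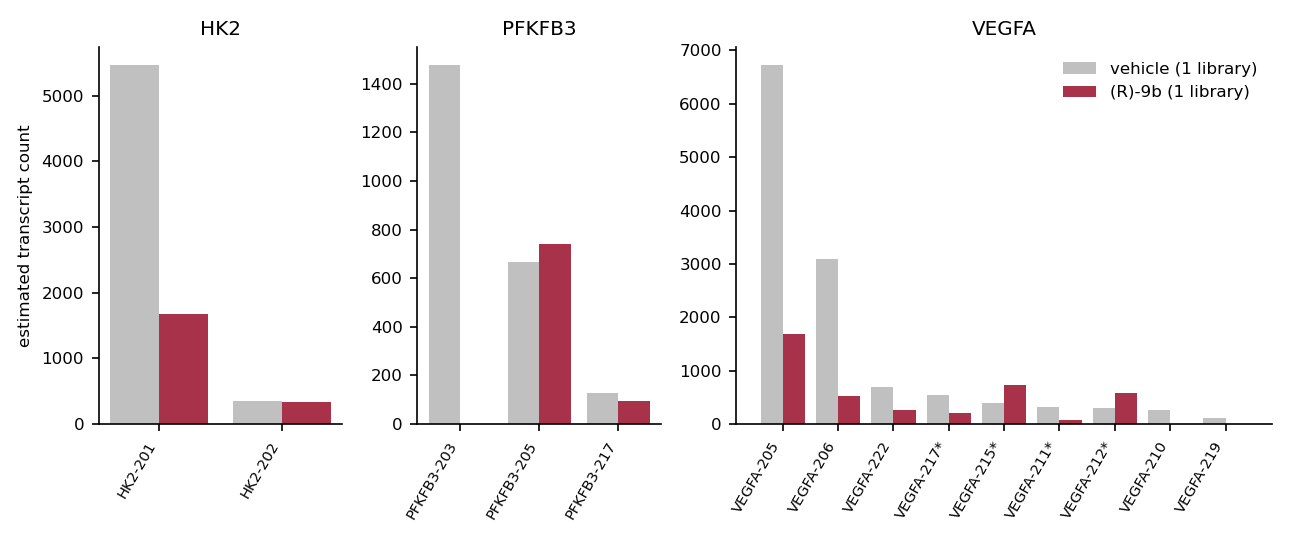
Bars give the estimated transcript counts (y axes from 0, separate for each gene) of HK2, PFKFB3 and VEGFA transcripts with at least 100 over both libraries, grey for vehicle and red for (R)-9b, 1 library each and without scaling, and an asterisk marks retained-intron transcripts. HK2-201, PFKFB3-203, VEGFA-205 and VEGFA-206 are lower in (R)-9b, while HK2-202 and PFKFB3-205 are at similar heights in both.

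The oxygen sensors and HIFs themselves showed no common direction. HIF1A, the HIF alpha subunit active in most cells, had 8025 counts in vehicle and 7536 in (R)-9b, a log2 ratio of 0.15 (0.10 to 0.19), and was not called. EPAS1, which encodes HIF-2 alpha, was scarce, with 166 and 332 counts, and was called higher (1.24, 0.96 to 1.52). HIF1A still made up 98.0% of the counts of both genes in vehicle and 95.8% in (R)-9b. VHL, the subunit that recognises hydroxylated HIF alpha, had 4909 and 3688 counts (-0.17, -0.24 to -0.11). EGLN1, the main HIF prolyl hydroxylase in most cells, was called lower, with 4699 and 2269 counts (-0.81, -0.89 to -0.74). EGLN3, a hydroxylase that is itself induced by HIFs, had 872 and 460 counts (-0.68, -0.85 to -0.52). Its interval crossed the 1.5-fold line, so it was not called, and it did not differ from EGLN1 beyond counting error (-0.13, -0.31 to 0.05). HIF activity is set mainly by protein stability, which these RNA counts do not measure.

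The other hypoxia-inducible genes held the largest differences of the 40. Of 11, 7 were lower beyond 2-fold and 2 higher, CA12 and EPO, the last by passing the minimum through 1 library. ADM, the scarcest of the 7, lost its 2-fold call when counts were halved or 5 counts were added. Together the 11 genes took 0.172% of the counts in vehicle and 0.0612% in (R)-9b, where mitochondrially encoded genes filled more of the total. After TMM scaling, the log2 ratio of their summed counts was -1.43. BNIP3 and BNIP3L encode mitochondrial outer membrane proteins that direct mitochondria to autophagy. BNIP3 had 41575 counts in vehicle and 10965 in (R)-9b, a log2 ratio of -1.69 (-1.72 to -1.65). BNIP3L had 14144 and 3967 counts and a log2 ratio of -1.60 (-1.65 to -1.54). The paralogues moved nearly alike, with a difference of -0.09 (-0.15 to -0.03), in contrast to the hexokinases and monocarboxylate transporters. The 3 protein-coding BNIP3 transcripts with at least 100 estimated counts were all lower, between -2.33 and -1.54.

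KDM3A, a histone demethylase of H3K9 that needs oxygen, had 8077 counts in vehicle and 1821 in (R)-9b, a log2 ratio of -1.91 (-1.99 to -1.84). Transcript estimates gave -1.21 for KDM3A, but the table held few of its reads, with 9.20 gene reads per estimated count in vehicle. P4HA1 and P4HA2 encode collagen prolyl hydroxylase subunits. P4HA1 had 10602 and 4047 counts (-1.15, -1.20 to -1.10), and P4HA2 had 4918 and 1331 (-1.65, -1.74 to -1.56), so that P4HA1 moved 0.50 log2 units (0.39 to 0.60) relative to P4HA2. ANKRD37, a small ankyrin-repeat gene, had 656 and 356 counts (-0.64, -0.83 to -0.46) and was not called, and 35.2% of its exonic bases overlap UFSP2 on the other strand.

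VEGFA, the growth factor for blood vessels, had 30915 counts in vehicle and 10626 in (R)-9b, a log2 ratio of -1.30 (-1.34 to -1.27). Its transcripts diverged. VEGFA-205, the most abundant by estimate, went from 6728 to 1687 (-1.75), and VEGFA-206 from 3094 to 533 (-2.29). The retained-intron transcripts VEGFA-212 and VEGFA-215 were higher, from 308 to 578 (1.16) and from 401 to 735 (1.12), whereas the 2 other retained-intron transcripts with at least 100 estimated counts were lower (-1.86 and -1.13). This was not particular to the gene set. In 13 members with both kinds of transcript, the retained-intron estimate was higher relative to the coding one in 11, or 84.6%, against 75.0% of 2043 genes, and the median difference was 0.30 log2 units in the members and 0.47 in all those genes. This comparison was chosen after the values were seen. Among the 13, the transcript estimates held few of the reads of ENO1, PKM, TPI1 and GAPDH. These had 21.7, 19.7, 11.9 and 5.72 gene reads per estimated count in vehicle, against a median of 2.75 over all genes compared. Adrenomedullin (ADM), a secreted vasodilator peptide, was nearly absent, with 57 counts in vehicle and 12 in (R)-9b (-2.01, -3.04 to -1.10). With halved counts its interval ran from -3.54 to -0.68.

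CA12 was higher in (R)-9b, EPO was read only there, and CA9 was too scarce to place. CA12, a membrane enzyme that converts carbon dioxide to bicarbonate outside the cell, had 1050 counts in vehicle and 2118 in (R)-9b, a log2 ratio of 1.25 (1.14 to 1.36). CA9, its strongly HIF-dependent relative, had 6 counts in each library, so its ratio (0.24) had an interval from -1.67 to 2.14 and no change in either direction was detectable at this depth. EPO, the hormone of red cell production, had 0 counts in vehicle and 27 in (R)-9b. Its level in (R)-9b was 0.478 CPM. With 0 counts in vehicle it has no ratio, and its interval started at 3.01 on the log2 scale, or at 1.97 when counts were halved to stand for read pairs. Its call as higher was fixed by passing the minimum through the (R)-9b library alone. The promoters of BNIP3 and CA12 are shown because these members of the group had the largest counts of those lower and higher. They lie at chr10:131981874-131982173 and chr15:63381797-63382096, both printed as the minus strand of GRCh38.p14, with capitals as above.
BNIP3: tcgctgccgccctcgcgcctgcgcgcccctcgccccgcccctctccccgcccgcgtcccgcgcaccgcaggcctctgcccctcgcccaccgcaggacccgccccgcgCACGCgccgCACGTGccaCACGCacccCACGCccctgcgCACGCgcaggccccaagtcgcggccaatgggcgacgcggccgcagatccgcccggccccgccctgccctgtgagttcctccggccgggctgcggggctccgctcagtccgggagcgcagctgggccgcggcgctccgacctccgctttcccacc
CA12: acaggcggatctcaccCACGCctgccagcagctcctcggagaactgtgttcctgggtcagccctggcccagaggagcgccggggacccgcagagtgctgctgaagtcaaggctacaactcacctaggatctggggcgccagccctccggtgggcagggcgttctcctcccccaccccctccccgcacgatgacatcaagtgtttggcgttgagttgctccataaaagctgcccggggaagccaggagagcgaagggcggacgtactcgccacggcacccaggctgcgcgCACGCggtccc
The BNIP3 window held 2 matches of ACGTG, as CACGTG at -132, and 4 of GCGTG between -141 and -102. The CA12 window held none of ACGTG and 2 of GCGTG, at -232 and 41. CA12-201, with 59.7% of the CA12 estimate in vehicle, starts at 63382161, outside this window. BNIP3-201, with 58.3% of the BNIP3 estimate in vehicle, starts at 131982013, ahead of the start from which the BNIP3 matches are counted.

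Genes of the same pathways outside the 40 were counted as 4 lists. Among 41 further hypoxia-inducible genes, 40 passed the minimum count, 15 were called lower and 2 higher, and the median log2 ratio was -0.60. PLOD2, a collagen lysyl hydroxylase, had 2784 counts in vehicle and 348 in (R)-9b (-2.76), the chemokine receptor CXCR4 443 and 93 (-2.01), and the secreted glycoprotein STC2 22938 and 5453 (-1.83). The iron-uptake genes TFRC, with 11978 and 22132 counts (1.12), and TF, with 11 and 48 (2.36), were the 2 called higher.

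Other genes of glucose and pyruvate metabolism had calls in both directions. Of 37, 29 passed, 4 were called lower and 4 higher, and the median was -0.17. The interval lay below 0 for 16 of the 29 and above 0 for 9, against 7293 and 6977 of the 23446 genes. PCK2, the mitochondrial phosphoenolpyruvate carboxykinase, had 48265 counts in vehicle and 13343 in (R)-9b (-1.62), and the hexokinase-like HKDC1 had 89 and 2 (-5.24, -8.31 to -3.34). PGK2, the testis form of PGK1, was read only in vehicle (10 and 0), and the gluconeogenic FBP1 only in (R)-9b (0 and 10). Both are among the genes called, but each reached the minimum of 10 counts exactly and through 1 library alone. Their calls were thus fixed by passing the minimum, and their halved counts would fall below it. The glucose transporter gene SLC2A6 had 1386 and 3034 counts (1.37), and the muscle enolase ENO3 514 and 958 (1.14). Among 14 genes of the pentose phosphate and glycogen pathways, only the branching enzyme GBE1 was called, lower at -0.70 (4249 and 2221 counts), and the median was -0.15. Among 12 measured genes of the HIF machinery, only the coactivator CREBBP was called, lower at -0.90 (13323 and 6072 counts), and the median was 0.06.

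A spread between cultures was not measured, so its effect was set by assumption. With a coefficient of variation of 0.1 added to each library, 10 members stayed lower beyond 1.5-fold and 5 beyond 2-fold, BNIP3, BNIP3L, KDM3A, P4HA2 and ADM. Of the glycolytic enzymes only HK2 then stayed lower beyond 1.5-fold, and PGK1, LDHA, SLC2A1, SLC16A1, SLC16A3, PFKFB4 and EGLN1 were no longer called.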

How the data were processed

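RNA sequencing of 2 libraries, C4-2B cells with vehicle or 1 µM (R)-9b, was analysed. Per the study's methods, poly-A RNA was sequenced in pairs and uniquely aligned, unambiguous reads were counted per gene. The submitters' processing notes name STAR 2.5.1a, featureCounts 1.4.6-p5, Salmon 0.8.2 and hg38, while the study's methods name another STAR release. The strand setting is not given in the sources used here. The authors deposited gene counts without normalization, CPM (the count over the library total), log2 CPM with an undescribed moderation, and estimated counts per transcript. Low counts were mostly even (1014 genes with 1 count and 3167 with 2 in vehicle), as when both reads of a pair are counted, which makes the intervals below too narrow.

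Repeated gene lines were dropped. Counts were scaled with TMM (edgeR 4.0.16, R 4.3.3; factors 1.02 and 0.979), and exact Clopper-Pearson 95% intervals of each ratio were computed with scipy 1.17.1, numpy 2.4.6, pandas 2.3.3 and Python 3.11.15 for genes with at least 10 counts. Intervals cover counting error only. Figures used matplotlib 3.10.9. On simulated counts for 60671 genes, 200 of 200 changed genes were recovered and 95.7% of intervals held the true ratio. Those counts were drawn with counting error alone and a known scaling, without counted mates or a spread between cultures. The simulation thus checks the computation and does not give the coverage of the intervals in the real libraries. Gene coordinates and exon lengths came from GENCODE on GRCh38 and promoter windows from RefSeq (GRCh38.p14).

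The members and gene lists were chosen with earlier results of these data known. All 40 members are named. Of the other lists, at most the 3 highest and 3 lowest genes beyond 1.5-fold are named, ordered by whichever interval bound is closer to 0, and transcripts with at least 100 estimated counts. The alternatives were scaling by total counts, DESeq2 1.42.0 size factors, upper quartile or without mitochondrially encoded genes, the other tables, minimum counts of 1 and 50, 5 added counts, halved counts, pseudogenes summed, calls on the point ratio and an assumed coefficient of variation of 0.1. The PKM isoforms that differ by a mutually exclusive exon were not analysed here.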

Additional observations from a re-analysis of the deposited data

How the results depend on the processing

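No result reversed under any alternative that gave a value, and 39 of the 40 members kept their sign throughout; PKM, at -0.03 and never called, was 0.01 under upper-quartile scaling. With total-count scaling, deposited CPM or moderated log2 CPM, the medians were -0.40 for the glycolytic enzymes, -1.36 for the other hypoxia-inducible genes and -0.82 for the transport and branch-point genes. With the upper quartile the first 2 were -0.31 and -1.27, and EPAS1 passed 2-fold. Halved counts took CA9 below the minimum and gave -1.44 for the other hypoxia-inducible genes and a difference from the enzymes of -1.11. A minimum of 50 counts, which removes CA9 and EPO, gave -1.60 and -1.25, with 1 member higher beyond 2-fold. Transcript estimates gave -0.83 for the transport and branch-point genes and 1 member higher beyond 2-fold. An assumed coefficient of variation of 0.1 left 1 member higher beyond 2-fold, 10 lower beyond 1.5-fold and 5 lower beyond 2-fold, by its construction. Counting 8 further members as hypoxia-inducible gave a difference of -0.56. ADM lost its 2-fold call with halved counts and with 5 counts added. Of 473 single-gene values, 103 moved past their counting interval. Intervals could not be formed for CPM or moderated log2 CPM, and the assumed variation leaves the ratios as they are. With 1 library per condition no library could be left out. No paired analysis was possible because each condition had 1 library. Depth limits CA9, EPO, ADM and SLC2A3.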
